A study of Arabidopsis thaliana with 22 samples.

Results

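The loss of green colour in an ageing or stressed leaf is an ordered breakdown of chlorophyll, and the transcripts of 10 genes of this process were followed in *Arabidopsis thaliana* seedlings under salt. The genes were selected by their identifiers from the 33602 genes of the count table. The rule uses no measured value, but these genes and the gene lists below were chosen with earlier results of these data known. Shares of all genes printed beside their counts are therefore a description and not a test of the set. All 10 were found in the table, and 9 of them had enough counts to be tested among 21831 genes. The libraries came from whole 10-day-old seedlings of the wild type (WT) and of *lrx345*, a triple mutant of the cell wall leucine-rich repeat extensin genes *LRX3*, *LRX4* and *LRX5*, taken before and after 6, 24 and 72 h in 150 mM NaCl. Each genotype had 2 libraries before salt and 3 at each later time, 22 in all, and no untreated seedlings were sampled at the later times, so that salt and elapsed time cannot be told apart. The study's methods, which describe the 6 h treatment, call the replicates biological, while the labels do not say whether they came from separate cultures, and the p-values measure the spread between these libraries.

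In this pathway chlorophyll b is first reduced towards chlorophyll a by NYC1. The magnesium ion of chlorophyll a is then removed by SGR1, and its close relative SGR2 has been described as acting against breakdown in some settings. PPH cuts off the phytol tail, PAO opens the ring, and RCCR reduces the coloured product. ORE1 and NAP are NAC transcription factors that promote leaf senescence, and both are known to act upstream of catabolic genes. SAG12, a cysteine protease, and SAG13, a short-chain alcohol dehydrogenase, are classical transcript markers of senescence, SAG12 of age-dependent senescence and SAG13 also of stress.

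Sequence was read from the TAIR10.1 assembly of RefSeq at coordinates of the deposited table, which names TAIR10, and coordinates and assembly fitted each other, with 97.75% of 120915 gaps between exons opening with GT and closing with AG. *ORE1* is shown first because its transcript is a known target of miR164 and was higher in the mutant at both 24 and 72 h. The mature miR164a is given with its seed, bases 2 to 8, in capitals, and the best ungapped match in the spliced *ORE1* transcript with the paired bases in capitals. The match is on chromosome 5, minus strand, at chr5:15858797-15858817, in the last exon, and 17 of its 21 bases paired.
miR164a: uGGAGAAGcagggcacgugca
ORE1 site: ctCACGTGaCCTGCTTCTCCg
None of the 3 miR164 precursor genes had enough counts to be tested. The best match in the other 9 genes paired 11 to 13 of 21 bases. The 200 bases before the start of *SGR2* and of *SAG13* are shown because, of the 10 genes, only these held ACGTG, the core of elements bound by abscisic acid response factors, on either strand. Occurrences are in capitals, and CACGTG, a longer motif that contains the core on both strands, is present once, in *SGR2*. The start is the outer of the deposited and RefSeq gene bounds. The *SGR2* window is chr4:7155950-7156149, plus strand, and the *SAG13* window is chr2:12600714-12600913, plus strand.
SGR2: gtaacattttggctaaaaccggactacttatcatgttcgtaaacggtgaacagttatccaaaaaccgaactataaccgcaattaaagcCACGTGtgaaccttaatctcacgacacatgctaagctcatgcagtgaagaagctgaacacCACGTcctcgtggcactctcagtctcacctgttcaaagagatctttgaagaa
SAG13: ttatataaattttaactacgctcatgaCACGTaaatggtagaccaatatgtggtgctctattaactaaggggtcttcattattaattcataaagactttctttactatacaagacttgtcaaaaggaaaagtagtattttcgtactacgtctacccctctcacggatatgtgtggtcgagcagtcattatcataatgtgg
ACGTG was present in 21.1% of the same windows of 21714 tested genes and CACGTG in 6.38%, so the 2 of 10 genes with the core are close to the share of all genes. All 200 bases of the *PAO* window and 15 of the *SGR1* window lay in annotated exons. A match is a description of letters and not of a bound site.

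The libraries held 7413461 to 15047080 counts. *LRX3* (AT4G13340) and the loci taken for *LRX4* (AT3G24480) and *LRX5* (AT4G18670) were lower in the mutant libraries at all 4 times, by 1.07 to 1.96 on the log2 scale for *LRX3*, 0.55 to 1.33 for *LRX4* and 2.41 to 2.87 for *LRX5*. Levels are given as FPKM, counts scaled by exon length and library size, computed here from the counts. Changes are log2 fold changes from edgeR's quasi-likelihood fit. Their standard errors (SE) are approximate, computed here as the absolute change over the square root of the fit's F statistic. A gene was called at a Benjamini-Hochberg adjusted p under 0.05 over all genes tested. An exact two-sided permutation test of 1 gene over 3 against 3 libraries cannot go below p = 0.1, and over 2 against 2 not below 0.333, so the calls rest on the fit.

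**Figure D1:**
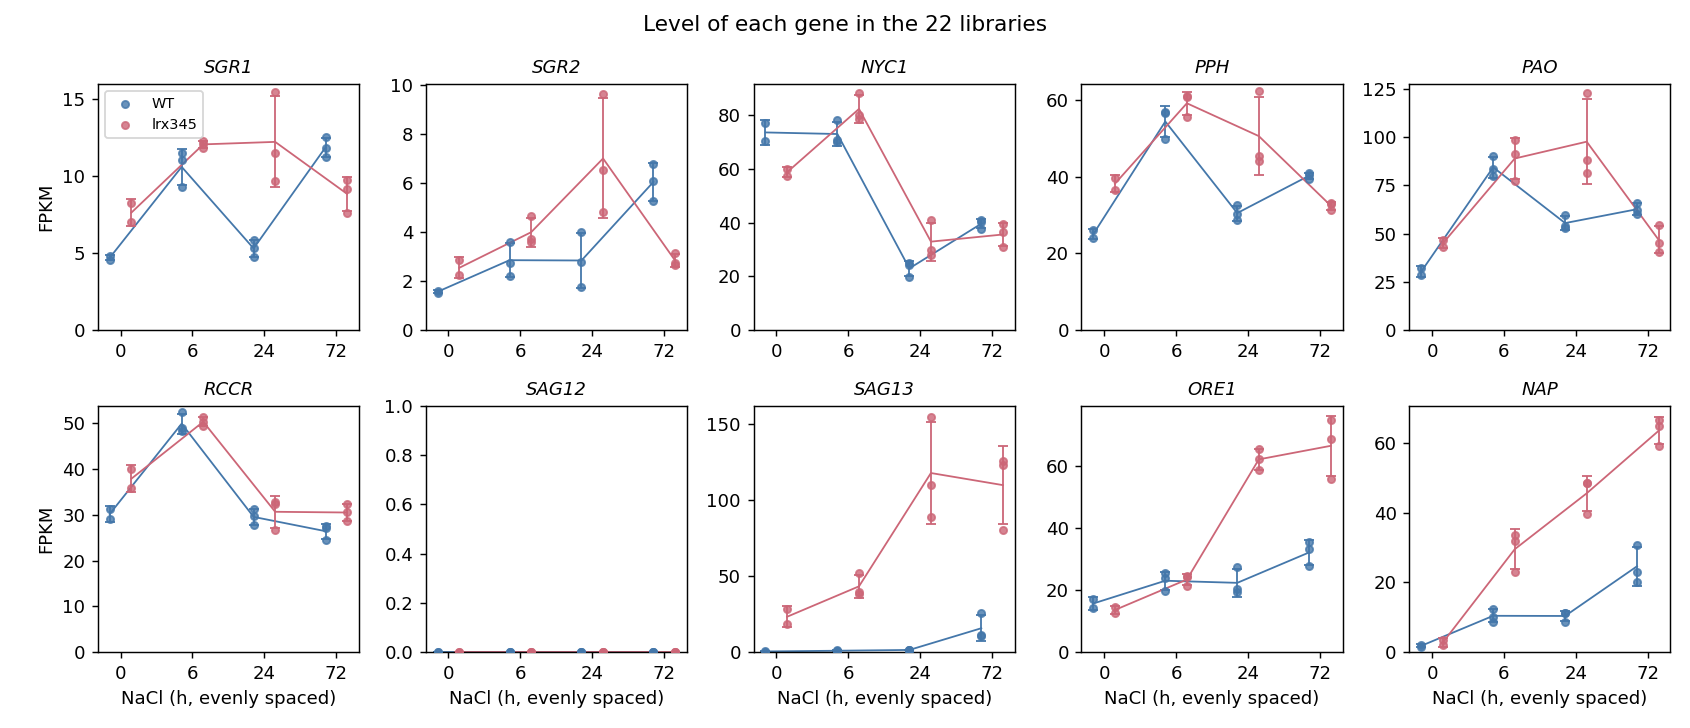
Level in FPKM (y axis, from 0, each panel on its own scale) of the 10 genes at 0, 6, 24 and 72 h of NaCl (x axis, evenly spaced). Points are libraries, lines join group means and bars are SD; *ORE1* and *NAP* stay high in lrx345 at 72 h, while *SGR2* drops from a mean of 6.99 at 24 h to 2.84.

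Before salt, 5 of the 9 tested genes were higher in *lrx345* and none was lower, against 10% of all tested genes higher and 8.01% lower. The 5 were *SAG13*, *SGR1*, *PPH*, *PAO* and *RCCR*, so that 4 of the 6 genes of the breakdown steps already differed in unstressed seedlings. *PPH* (AT5G13800, the enzyme that removes phytol, chromosome 5) was at 24.1 and 25.99 FPKM in WT and 36.6 and 39.7 in *lrx345*, a log2 fold change of 0.61 (SE 0.12, edgeR adjusted p = 0.00095). The other 3 had changes of 0.32 to 0.69. With 1 library left out, which leaves 1 in that arm and assumes that it varies like the other groups, the number of genes called was 3 without WT replicate 1, 3 without the other WT library and 2 without *lrx345* replicate 2. *SGR1* lost the call at 0.66 and 0.59, *PAO* at 0.48 and 0.51 and *RCCR* at 0.26 to 0.38, so the direction held. *SAG13* and *PPH* kept the call in every such fit.

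*SAG13* (AT2G29350, chromosome 2) was the gene with the widest separation between the genotypes. At 0 h it was at 0.42 and 0.62 FPKM in WT and at 18.4 and 28.2 FPKM in *lrx345*. At 24 h the 3 WT libraries were at 1.26 to 1.74 FPKM and the 3 *lrx345* libraries at 88.7, 110 and 154 FPKM. The genotypes did not overlap at any time. The log2 fold change was 5.46 (SE 0.53) at 0 h, 5.43 (SE 0.38) at 6 h, 6.27 (SE 0.35) at 24 h and 2.78 (SE 0.26) at 72 h, with edgeR adjusted p-values of 4.8e-08, 1.2e-10, 1.3e-12 and 2.9e-09. The drop of the difference at 72 h came with a rise in WT, where the libraries reached 25.6, 11.1 and 10.6 FPKM, replicate 1 standing above the other 2, while *lrx345* was at 126, 80.3 and 123 FPKM.

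*SAG13* lies in a cluster of related dehydrogenase genes on chromosome 2, and reads of such genes can be hard to assign. Its closest gene by exon sequence, AT2G29290, was 89.5% identical over 583 of 1368 bases. AT2G29290 moved the other way, with a log2 fold change of -1.25 at 0 h and -1.77 at 24 h. Of 10 tested neighbours, 5 were lower and 2 higher in *lrx345* at 0 h, and 7 were lower and 2 higher at 24 h. AT2G29340 was higher at 0, 6 and 24 h, by 1.47, 1.14 and 1.30 on the log2 scale. AT2G29150 was the other neighbour that was higher, and it was sparse. It had 0 counts in WT and 10 in *lrx345* at 0 h, 0 and 21 at 24 h, and 9 and 47 at 72 h, where its log2 fold change of 2.71 (SE 0.53) was close to the 2.78 of *SAG13*.

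**Figure D2:**
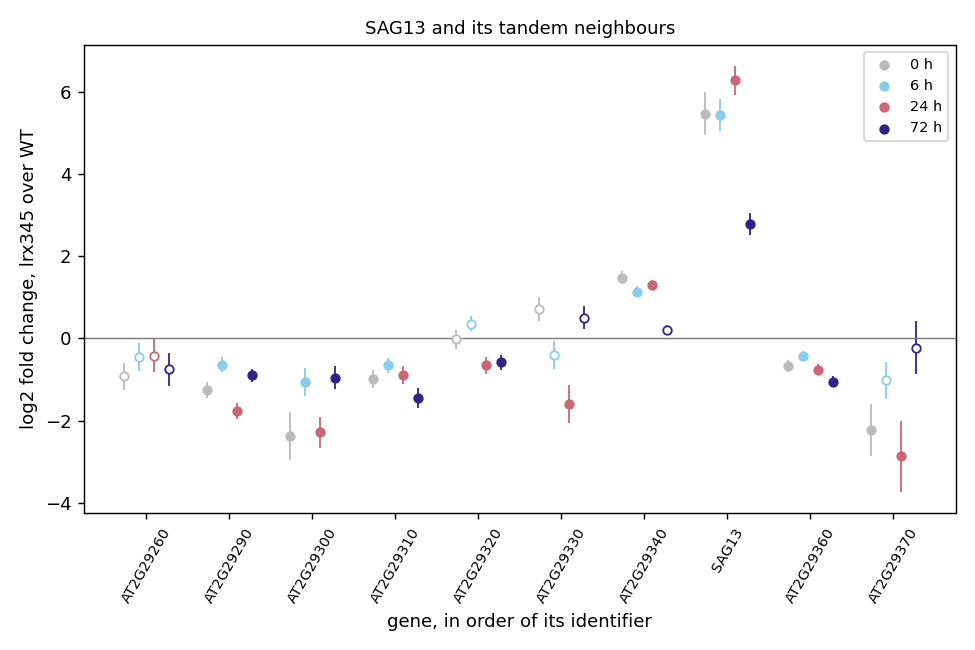
Log2 fold change of *lrx345* over WT (y axis) for *SAG13* and 9 neighbouring genes in identifier order (x axis) at 0, 6, 24 and 72 h; bars are SE and filled points passed the adjusted p threshold. *SAG13* lies above the neighbours plotted at each time. AT2G29150, which was also higher in *lrx345*, is not plotted because WT had 0 counts at 0 and 24 h.

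*SAG12* (AT5G45890, chromosome 5) had 0 counts in all 22 libraries. A count of 0 allows up to 3 counts in a library, or 0.154 to 0.336 FPKM depending on the library, so *SAG12* was not detectable at this depth at any time in either genotype. This limit covers counting error only.

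After 6 h of NaCl, the genotypes differed in 2 of the 9 genes, *SAG13* and *NAP*, both higher in *lrx345*, against 18.3% of all genes higher and 17.7% lower. Within WT, 7 genes were higher than at 0 h and none lower, against 19.3% and 20.8% of all genes. With 1 library left out this number was 5 to 7, as *SGR2* lost its call in 4 of 5 such fits, at 0.68 to 0.92, and *ORE1* without WT 0 h replicate 1, at 0.43. Within *lrx345*, 8 were higher and none lower, against 23.9% and 23.1%. Of these, *SAG13* lost its call with 1 library left out, at 0.61 and 0.74. The comparisons within a genotype share the 0 h libraries. *PAO* (AT3G44880, the ring-opening oxygenase, chromosome 3) rose from 28.4 and 32.3 to 83.3, 79.7 and 90.1 FPKM in WT, a log2 change of 1.47 (SE 0.15, edgeR adjusted p = 3.2e-08). In *lrx345* it rose from 43.1 and 46.8 to 77.1, 91.2 and 98.4 FPKM, a log2 change of 0.99 (SE 0.14). At 6 h the genotypes overlapped, with a difference of 0.08 (SE 0.12). *SGR1* (AT4G22920, chromosome 4) rose by 1.17 in WT and 0.67 in *lrx345*, and *PPH* by 1.12 and 0.63. The size of the rise did not pass the threshold for a difference between the genotypes in any of the 9 genes, against 5.2% of all genes with a positive and 3.44% with a negative difference. By edgeR, 0 genes passed it after adjustment, while 6 had an unadjusted p under 0.05, and DESeq2 called 1, *PPH*, which also passed in several of the other fits.

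*NAP* (AT1G69490, chromosome 1) rose from its 0 h level in both genotypes and to a higher level in *lrx345* from 6 h on. It was at 1.57 and 2.11 FPKM in WT and at 1.93 and 3.62 in *lrx345* at 0 h, where the genotypes overlapped. At 6 h it was at 12.4, 10.2 and 8.74 FPKM in WT and at 33.6, 31.9 and 22.98 FPKM in *lrx345*. Between the genotypes the log2 fold change came to 0.54 (SE 0.37, not called) at 0 h, 1.49 (SE 0.18) at 6 h, 2.13 (SE 0.18) at 24 h and 1.36 (SE 0.16) at 72 h. Ordered by mean, *lrx345* at 72 h was at 63.4 FPKM, at 24 h at 45.5 and at 6 h at 29.5, and WT at 72 h, at 24.6, overlapped the last of these.

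At 24 h, 8 of the 9 genes were higher in *lrx345* and none was lower, against 24.3% of all genes higher and 28.4% lower. *RCCR* was the gene that was not called. *ORE1* (AT5G39610, chromosome 5) was at 19.4, 27.5 and 20.3 FPKM in WT and at 65.5, 58.7 and 62.5 FPKM in *lrx345*, a log2 fold change of 1.48 (SE 0.13, edgeR adjusted p = 2.8e-09). Every *lrx345* library was above every WT library. At 0 h and 6 h *ORE1* was not called, with log2 fold changes of -0.21 (SE 0.18) and 0.02 (SE 0.14). *SGR1* was at 4.72, 5.33 and 5.84 FPKM in WT and at 15.4, 11.5 and 9.66 FPKM in *lrx345* at 24 h, a log2 fold change of 1.20 (SE 0.15). *SGR2* (AT4G11910, chromosome 4) was at 1.75, 3.98 and 2.78 FPKM against 9.63, 4.81 and 6.53 FPKM, a change of 1.30 (SE 0.26). On the same log2 scale *PAO* differed by 0.82, *PPH* by 0.73 and *NYC1* by 0.52. Replicate 1 of *lrx345* was the highest of its group for *SGR1*, *SGR2*, *NYC1*, *PPH*, *PAO* and *SAG13*. Without it, 8 genes were still called.

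**Figure D3:**
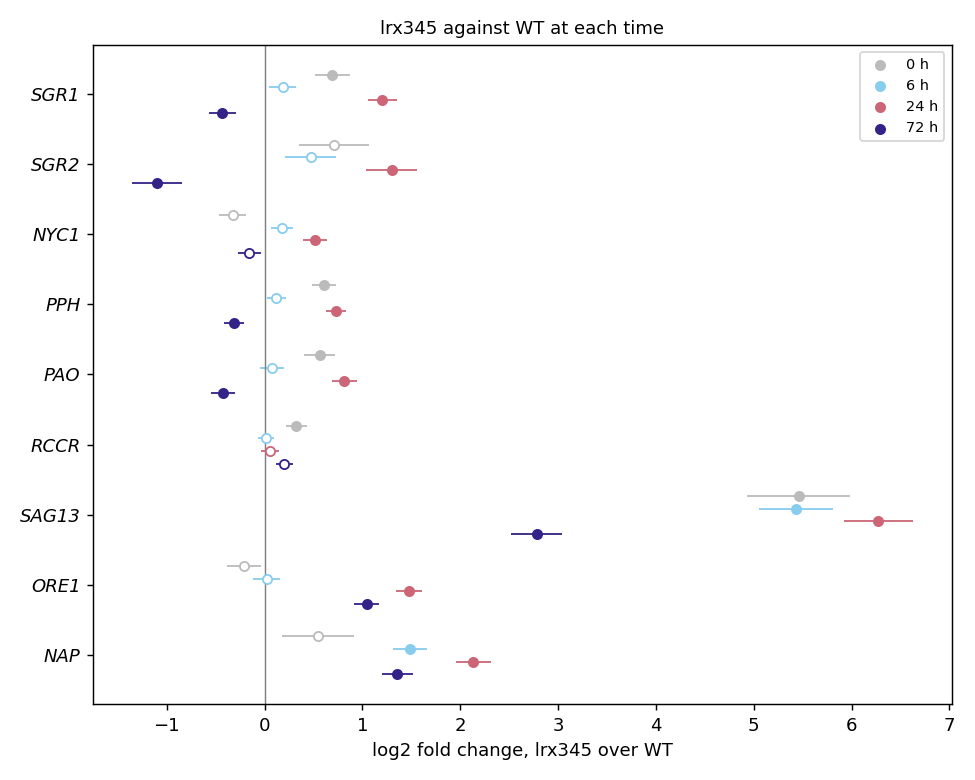
Log2 fold change of *lrx345* over WT (x axis) for the 9 tested genes (y axis) at each time; bars are SE, filled points passed the adjusted p threshold and open points did not. *SGR1*, *SGR2*, *PPH* and *PAO* lie to the right of 0 at 24 h and to the left at 72 h, whereas *ORE1*, *NAP* and *SAG13* lie to the right at both.

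At 72 h, 3 of the 9 genes were higher in *lrx345*, against 31.3% of all genes, and 4 were lower, against 30.7%, so that these counts are near the background. The 3 were *SAG13*, *ORE1* and *NAP*, and the 4 were *SGR1*, *SGR2*, *PPH* and *PAO*. *NYC1* and *RCCR* were not called. *ORE1* was at 35.5, 27.8 and 33.4 FPKM in WT and at 75.0, 55.9 and 68.9 FPKM in *lrx345*, a log2 fold change of 1.04 (SE 0.13, edgeR adjusted p = 2.4e-07). *SGR2* was at 6.78, 5.26 and 6.07 FPKM in WT and at 3.15, 2.64 and 2.74 FPKM in *lrx345*, a change of -1.098 (SE 0.26, edgeR adjusted p = 0.00072). *PAO* was at 65.9, 59.96 and 62.1 FPKM in WT and at 54.5, 40.7 and 45.2 FPKM in *lrx345*, a change of -0.42 (SE 0.13). *PPH* and *SGR1* differed by -0.31 (SE 0.10) and -0.43 (SE 0.14). The genotypes did not overlap in any of these, but the differences of *SGR1*, *PPH* and *PAO* were under 1.5-fold, and *SGR1* lost its call without *lrx345* replicate 2, at -0.32.

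The turn between 24 and 72 h was compared directly, in contrasts added after the values were seen. From 24 to 72 h, 7 of 9 genes rose in WT and none fell, against 20.7% and 19.6% of all genes, whereas in *lrx345* 1 rose and 4 fell, against 26.3% and 25.3%. The 4 that fell in *lrx345* were *SGR1*, *SGR2*, *PPH* and *PAO*. *SGR2* rose 2.14-fold in WT, from a mean of 2.84 to 6.03 FPKM, and its log2 change in *lrx345* was -1.30 (SE 0.26), with *PAO* at 0.18 (SE 0.13, not called) in WT and -1.06 (SE 0.13) in *lrx345*. The change differed between the genotypes in 7 genes, each more negative in *lrx345*, against 15% of all genes more negative and 14.3% more positive. The differences were -1.63 for *SGR1*, -2.40 for *SGR2*, -1.04 for *PPH*, -1.24 for *PAO*, -3.49 for *SAG13*, -0.77 for *NAP* and -0.68 for *NYC1*. *ORE1* missed the threshold at -0.44 (edgeR adjusted p = 0.078), and *NAP* lost the call without WT 24 h replicate 1, at -0.67, or WT 72 h replicate 1, at -0.58. *ORE1* changed by 0.10 (SE 0.13) in *lrx345* over these hours, and *NAP* rose by 0.48 (SE 0.16). This rise lost its call without *lrx345* 24 h replicate 3, at 0.39, or *lrx345* 72 h replicate 1, at 0.41. Without *lrx345* 24 h replicate 1, *SGR1* no longer fell past the threshold in *lrx345*, at -0.27, and it also lost the call without *lrx345* 72 h replicate 2, at -0.37.

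**Figure D4:**
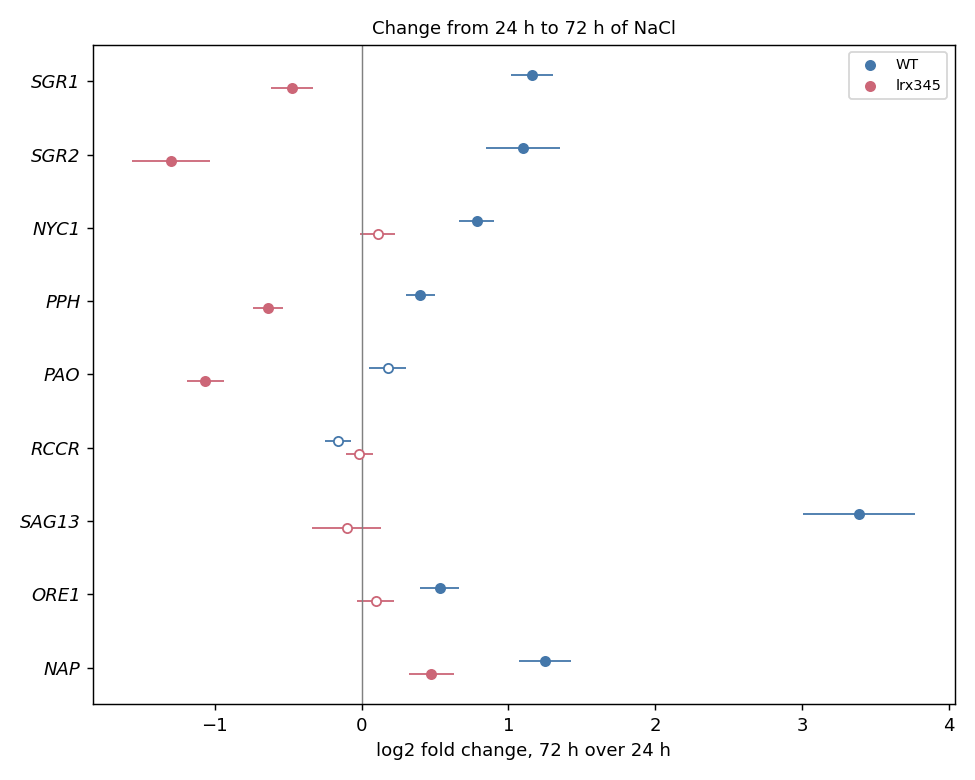
Log2 fold change from 24 to 72 h of NaCl (x axis) in WT and *lrx345* for the 9 tested genes (y axis); bars are SE and filled points passed the adjusted p threshold. *SGR1*, *SGR2*, *PPH* and *PAO* fell in *lrx345*, and *SGR1*, *SGR2* and *PPH* rose in WT.

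Measured from 0 h, WT had 3 genes higher and 1 lower at 24 h, against 16.1% and 15.4% of all genes, and 7 higher and 1 lower at 72 h, against 24.7% and 23.2%. *lrx345* had 7 higher and 2 lower at 24 h, against 27.5% and 26.4%, and 3 higher and 2 lower at 72 h, against 34.4% and 33%. Some of these calls were lost with 1 library left out. In WT at 24 h *ORE1* lost it at 0.33 and 0.38. In *lrx345* at 24 h *RCCR* lost it at -0.17 and -0.21 and *PPH* at 0.34, and at 72 h *RCCR* lost it at -0.24. *NYC1* (AT4G13250, chlorophyll b reductase, chromosome 4) was the one member lower than at 0 h in both genotypes at 24 and 72 h. It was at 70.3 and 77.0 FPKM at 0 h and at 19.7, 24.9 and 24.4 FPKM at 24 h in WT, a log2 change of -1.68 (SE 0.13), and in *lrx345* it fell by 0.84 (SE 0.13). The change from 0 h differed between the genotypes at 24 h in 3 genes, all more positive in *lrx345*, against 9.55% more positive and 8.28% more negative. At 72 h it differed in 6, 1 more positive and 5 more negative, against 15.3% and 16.9%. Clock genes also moved with these comparisons. *CCA1*, known to peak around dawn, had group means of 1.07 to 5.92 FPKM at 0 and 6 h and of 58.5 to 94.5 FPKM at 24 and 72 h, and its part in the changes from 0 h was not tested. Between the genotypes, *CCA1* and *TOC1* of the 4 clock markers were called at 24 h, at -0.32 and 0.18. At 72 h *GI*, *TOC1* and *LHY* were called, at 1.24, 0.57 and -0.24, and *CCA1* was at -0.06. Their part in the differences between genotypes was not tested.

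*RCCR* (AT4G37000, chromosome 4) had the narrowest differences between the genotypes, 0.01 to 0.32 on the log2 scale. It was higher at 6 h than at 0 h in both, by 0.73 in WT and 0.41 in *lrx345*, and the genotypes differed at 72 h by 0.20 (SE 0.09), with an edgeR adjusted p of 0.0505. In their 8 group means of log2 CPM, each centred on its own mean, the most alike pair of the 9 genes was *PPH* and *PAO*, with a root mean square difference of 0.23, followed by *SGR1* and *PPH* at 0.25. *ORE1* and *NAP* differed by 1.06. Over 16834 tested genes with a mean count of at least 50, those most like *SGR1* were *GGT4* (0.19), *MYB20* (0.20) and AT3G07700 (0.22). Those most like *ORE1* were *CTF2A* (0.20), AT3G46650 (0.22) and AT5G60680 (0.23). Those most like *NAP* were AT2G38823 (0.28), *AOX1A*, an alternative oxidase (0.36), and *ACS8*, an ethylene synthesis enzyme (0.37). No gene came as close to *SAG13*, for which the nearest were *BGLU18* (0.55), *LAS1* (0.58) and *PGL5* (0.68). The measure is not scaled to the size of a gene's changes, and the group means of *SAG13* ran from 0.52 to 117.7 FPKM.

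Seedlings hold shoot and root tissue, and in such bulk samples fewer cells of a type and less RNA per cell cannot be told apart. All 5 shoot markers were lower in *lrx345* at 24 h and at 72 h. Their summed level was 10740 to 11040 FPKM in *lrx345* and 14560 to 15280 in WT at 24 h, and 5261 to 6246 against 11220 to 12210 at 72 h, and none was at 0. Of 7 root markers, 3 were higher and 4 lower at 72 h, and their summed level was 6285 to 8053 FPKM in *lrx345* and 3081 to 3383 in WT. Such a sum is weighted to the most abundant genes and does not stand for the list. Among the 4 lower were *CASP1*, *COBL9* and *EXPA7*, at log2 fold changes of -2.49, -1.51 and -1.37, and among the 3 higher was *NRT2.1*, at 1.77. Of 3 guard cell markers, 2 were higher at 72 h and none was lower. At 24 h *SGR1*, *SGR2*, *PPH* and *PAO* were higher while the shoot markers were lower, and at 72 h both were lower. The 4 shoot markers with the largest changes at 72 h, *LHCB2.1*, *PSBO1*, *RBCS1A* and *PSAD1*, were at -1.33, -1.07, -0.93 and -0.92 on the log2 scale. *SGR1*, *PPH* and *PAO* were lower by less than each of these 4, and *SGR2* lay among them. The remaining shoot marker, *LHCB1.1*, was lower by less than these 4 and was not part of this comparison. The part of these shifts in the results was not tested.

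Other genes linked to chlorophyll breakdown were also listed. The list is mixed in function and not limited to the steps described above, so its counts and medians do not stand for the pathway. Of these 11 genes, 3 were higher and 6 lower in *lrx345* at 24 h, against 24.3% and 28.4% of all genes. Their median log2 fold change was -0.22 beside -0.08 over all genes. At 72 h, 3 were higher and 7 lower, against 31.3% and 30.7%, with a median of -0.53 beside -0.01. *CYP89A9*, which modifies the colourless breakdown products, went from a mean of 58.4 FPKM in WT to 15.9 in *lrx345* at 72 h, a log2 fold change of -1.88. *CLH1*, a chlorophyllase, was named after its values were seen. It had means of 17.1 FPKM in WT and 204 in *lrx345* at 0 h, and 16.6 and 368 at 24 h. Its log2 fold changes were 3.57, 3.10, 4.46 and 0.79 at 0, 6, 24 and 72 h.

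Of 21 regulators of breakdown and senescence, 14 were higher and 3 lower in *lrx345* at 72 h (median log2 fold change 0.76), beside 31.3% of all genes higher, 30.7% lower and a median of -0.01 over all genes. The same shares and median apply to the lists that follow. *JUB1*, a NAC factor known to delay senescence, was higher by 3.20 on the log2 scale, as are the differences that follow, and *WRKY75* and *WRKY6*, which promote it, by 2.06 and 2.13. *MYC2*, the main jasmonate transcription factor, was higher by 1.90. Of 25 other senescence-associated genes, 16 were higher and 3 lower, with a median of 0.77. *DIN2*, a beta-glucosidase, was higher by 4.14, from a mean of 6.69 FPKM in WT to 119 in *lrx345*, and *SAG29*, a sugar transporter, by 3.91. *SAG29* was lower in *lrx345* at 0 and 6 h, with log2 fold changes of -1.63 and -1.68. *SAG113*, a protein phosphatase of abscisic acid signalling, was higher by 2.92 and *SRG1* by 2.84. At 0 h *DIN2*, *SRG1*, *MYC2* and *WRKY6* were already higher, by 3.63, 1.34, 1.19 and 1.14, while *SAG113* was not called, at 0.72. All 15 chlorophyll synthesis genes were lower at 72 h, with a median of -0.88, among them *PORA* at -2.30 and *GLK2*, a factor that promotes chloroplast development, at -1.63.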

How the data were processed

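RNA was taken from whole seedlings, and the authors deposited raw counts per gene made with featureCounts 1.4.6 over exons, counting read pairs, with no option set for strand or for reads that map to several places; the submitters' processing notes also name FastQC, TopHat2 and TAIR10, whose versions are not given in the sources used here. The 22 count columns were matched to labels by name. One WT 0 h column carries a number that no label has and was used as an unnumbered replicate. edgeR 4.0.16 in R 4.3.3 was run with TMM factors, filterByExpr and one quasi-likelihood fit over all 8 groups, and 21831 genes were tested with Benjamini-Hochberg adjustment. FPKM was computed from counts, exon length and scaled library size. *PAO* shares 11 exon bases with AT3G44870. The closest genes were found with blastn 2.17.0. Genes named were the 10 members, the *LRX* loci, up to 4 genes per list with the largest change called at 72 h, and the 3 most alike genes. The members and lists were chosen with earlier results of these data known. Alternatives were DESeq2 1.42.0, upper-quartile factors, other filters, fewer groups, a replicate block, a fold minimum of 2 and each library left out. The 20 replicate pairs differed by 2.47 to 14.5 times sampling noise (chi-square per degree of freedom).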

Additional observations from a re-analysis of the deposited data

Results flagged for a closer look

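The change from 0 h differed between *lrx345* and WT in 9 cases, by the interaction term of the edgeR fit, and each value is the log2 change in *lrx345* minus that in WT. At 24 h the differences were 0.84 for *NYC1*, 1.69 for *ORE1* and 1.59 for *NAP*. At 72 h they were -1.12 for *SGR1*, -1.81 for *SGR2*, -0.92 for *PPH*, -0.99 for *PAO*, -2.68 for *SAG13* and 1.25 for *ORE1*. All use the 2 libraries per genotype at 0 h. The difference for *NAP* at 24 h lost its call without WT 0 h unnumbered replicate, at 1.35, and without *lrx345* 0 h replicate 1, at 1.15.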

How the results depend on the processing

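Of 1818 values of single genes under the alternatives, 1715 kept direction and side of the threshold, 34 lost the call, 33 gained it and 36 changed sign. None of those 36 was called in either fit. With a fold above 2 required as well, the genes called between genotypes were 1 at 0 h, 5 at 24 h and 4 at 72 h. From 0 h they were 4 at 6 h and 2 at 24 h in WT, and in *lrx345* 1 at 6 h, then 5 at 24 h, then 3 at 72 h. In WT at 72 h, *PPH* at 0.68 and *NYC1* at -0.89 were under this fold minimum. So were the interactions of *NYC1* at 24 h, at 0.84, and of *PPH* and *PAO* at 72 h, at -0.92 and -0.99. From 24 to 72 h the genes called with this minimum were 4 in WT and 2 in *lrx345*. The interaction at 6 h had 1 gene called with upper-quartile factors, without a filter, with DESeq2 and under a mean count minimum of 20, and 3 with only the groups compared; leaving out a library gave 0 to 1. Leaving out a library gave 2 to 5 genes called between genotypes at 0 h. The cause was not tested.

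The correlation of same-numbered deviations between the genotypes was -0.115 to 0.0931 over 9 pairs, and 4 of 9 correlated best with their own number. At 6 h each pair did so, at 0.0931, 0.0623 and 0.0788, at 24 h none did, and at 72 h only replicate 2 did. Pairing at 0 h was not checked. The replicate block used only numbered libraries, so at 0 h it kept only replicate 1 of WT. With it, *SGR1* (0.70) and *RCCR* (0.40) lost the call between genotypes at 0 h. *NAP* lost its interaction at 24 h (1.31) and *SGR2* its rise in WT at 6 h (0.95). Without the unnumbered WT library alone, the same results lost the call, at 0.66, 0.38, 1.35 and 0.83. The part of the block was not separated from that of the dropped library.

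Sign changes with no call were these. For *NYC1* in WT at 6 h the value was 0.011 without a filter, 0.020 with only the groups compared, 0.063 with the replicate block and -0.076 to 0.056 with a library left out. Upper-quartile factors gave -0.0092 for *RCCR* and -0.00056 for *ORE1* between genotypes at 6 h, -0.030 for *RCCR* at 24 h, and -0.0053 for *SGR2* and -0.090 for *PAO* from 0 to 72 h in *lrx345*. The block gave 0.059 for *RCCR* in WT at 24 h. With a library left out, the ranges were -0.078 to 0.12 for *ORE1*, -0.0020 to 0.18 for *PAO* and -0.011 to 0.062 for *RCCR* between genotypes at 6 h. They were -0.016 to 0.33 for *SGR2* and -0.074 to 0.15 for *PAO* from 0 to 72 h in *lrx345*, and -0.084 to 0.030 for *RCCR* in WT at 24 h. From 24 to 72 h in *lrx345* they were -0.016 to 0.30 for *NYC1*, -0.046 to 0.21 for *ORE1*, -0.11 to 0.040 for *RCCR* and -0.27 to 0.14 for *SAG13*. For the interactions they were -0.055 to 0.22 for *PPH* at 24 h and -0.33 to 0.30 for *SAG13* at 6 h. At 0 h, 2 libraries per genotype limit what can be called.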
